A study of Mus musculus with 8 samples.

Results

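The 9 genes described here encode the class I histone deacetylases Hdac1, Hdac2, Hdac3 and Hdac8 and the sirtuins Sirt1, Sirt2, Sirt3, Sirt6 and Sirt7. They were chosen by name: every non-control probe whose gene name in the scanner files was one of these 9 was taken, which gave 15 of the 39429 probes on the array. The signal of 14 of these 15 probes was high enough to test, and each gene kept at least 1 tested probe. The third Sirt7 probe was left untested because its signal was not above the floor described below on any of the 8 arrays.

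The RNA came from E14 cells, a line of mouse embryonic stem cells (ESCs) derived from the early embryo, grown without feeder cells on gelatin in serum medium with LIF, and the design asks whether regulation of genes by the Tip60-p400 complex needs Hdac6. RNA was taken 72 hours after infection with lentivirus carrying short hairpin RNAs. The 4 groups were control KD (KD, knockdown; the hairpin was directed at GFP, a gene foreign to the cells), knockdown of Tip60 (Tip60 KD) or of Hdac6 (Hdac6 KD), and double KD, in which both genes were targeted, each with 2 biological replicates lettered A and B. The control cells were infected as well, no group was left uninfected, and per the study's methods 1 hairpin was used for each gene.

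Deacetylases remove acetyl groups from lysines of histones and other proteins, the opposite reaction to that of acetyltransferases such as Tip60. The class I enzymes use zinc and are mainly nuclear. Hdac1 and Hdac2 are the catalytic subunits of the NuRD, Sin3 and CoREST corepressor complexes, Hdac3 is that of the NCoR/SMRT complex, and Hdac8 acts outside these complexes and deacetylates the cohesin subunit Smc3. Sirtuins instead consume NAD: Sirt1, Sirt6 and Sirt7 are mainly nuclear, Sirt2 is mainly cytoplasmic and deacetylates tubulin, as Hdac6 does, and Sirt3 is the main mitochondrial deacetylase.

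Sirt1, Sirt2 and Sirt3 were the sirtuin genes whose probes were called in each of the 3 knockdowns, so the bases before their transcription starts are shown, from RefSeq on build GRCm38.p6, 5′ to 3′ on the strand of the gene and ending just before the start. The promoter table held 7 of the 9 genes (no entry matched Hdac1 or Hdac3), with 9 start sites in all. Capitals mark matches to the E-box CACGTG, the CCAAT box CCAAT and the GC box GGGCGG on either strand, with overlapping matches counted. The Sirt1 stretch is the 250 bases of chr10:63339036-63339285 (minus strand). The Sirt2 stretch is the run of bases of chr7:28766645-28766751 (plus strand) that separate its start from that of Nfkbib on the other strand, and the Sirt3 stretch is the 84 bases of chr7:140882310-140882393 (minus strand) between its upstream start and that of Psmd13.
Sirt1: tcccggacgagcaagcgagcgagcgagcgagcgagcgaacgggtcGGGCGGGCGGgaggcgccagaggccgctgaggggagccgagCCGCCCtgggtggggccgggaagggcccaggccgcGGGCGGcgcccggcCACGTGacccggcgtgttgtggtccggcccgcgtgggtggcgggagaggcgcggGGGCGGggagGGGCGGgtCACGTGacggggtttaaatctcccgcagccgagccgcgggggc
Sirt2: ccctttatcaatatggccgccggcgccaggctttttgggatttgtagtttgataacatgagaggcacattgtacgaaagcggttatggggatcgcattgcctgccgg
Sirt3: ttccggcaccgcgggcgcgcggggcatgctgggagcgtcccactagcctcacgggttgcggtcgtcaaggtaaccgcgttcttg
The Sirt1 window was the most GC-rich of the 9, at 79.2% GC with 39 CpG, and held 2 E-boxes and 6 GC boxes, some of the latter overlapping. An E-box was present in 6.02% of the 32851 RefSeq windows of this length, a CCAAT box in 33.8% and a GC box in 32.7%. The shorter stretches of Sirt2 and Sirt3 held no match to the 3 motifs. Over the whole 250 bases, the Sirt2 window held 2 CCAAT boxes and 1 GC box and that of the upstream Sirt3 start none, while the window of the other Sirt3 start held 1 CCAAT box and 3 GC boxes. The printed stretches were 51.4% and 69.0% GC, with 7 and 12 CpG.

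Of the class I genes, the probes of Hdac2 and Hdac8 are shown themselves. They are given in the orientation of the transcript and at the positions that the scanner files give on build mm9. The Hdac2 probe, at chr10:36713455-36713589 (plus strand), covered 135 genomic bases with its 60 letters. Hdac8 probe 1, at chrX:99503070-99597969 (minus strand), spanned 94900 genomic bases, and Hdac8 probe 2, at chrX:99700320-99700379 (minus strand), was contiguous. The Hdac2 probe and Hdac8 probe 1 therefore join stretches that lie apart in the genome.
Hdac2: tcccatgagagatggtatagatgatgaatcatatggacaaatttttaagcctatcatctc
Hdac8 probe 1: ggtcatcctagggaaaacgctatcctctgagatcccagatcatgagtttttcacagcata
Hdac8 probe 2: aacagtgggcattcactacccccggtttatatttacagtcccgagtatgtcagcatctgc

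Levels are given as log2 of the processed signal divided by that array's 75th percentile, so that 0 is the signal of the probe at that percentile. The 4 groups are compared within a probe only, since the brightness of different probes cannot be compared. Values were raised to a floor of -2.78, which 9.14% of the tested values had reached. A change is a difference of group means on this log2 scale, and it was called where the limma adjusted p, taken over all 22518 probes tested, was under 0.1. In bulk RNA, fewer cells that express a gene and less of its RNA per cell cannot be told apart.

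The targeted genes were lower where they should be by label: Kat5, which encodes Tip60, was changed by -1.37 upon Tip60 KD, 0.16 (not called) upon Hdac6 KD and -1.31 upon double KD, and Hdac6 by -0.45, -2.50 and -1.88. The fall of Hdac6 upon Tip60 KD, where it was not targeted by label, was called too. Hdac6 was also called higher upon double KD than upon Hdac6 KD, so its depletion was not equal in these groups. Of 43020 spots, between 21896 and 40609 were well above background per array, fewest on control KD replicate B. All 8 ESC markers were detected, and their summed signal lay between 280 and 311 percentile units on every array. Singly, 3 were called upon Tip60 KD (2 higher and 1 lower), 2 upon Hdac6 KD (both higher) and 4 upon double KD (3 higher and 1 lower). With the replicate block described below 5, 4 and 7 were called. Of all probes tested, 41.3%, 30.8% and 34.6% were called in these knockdowns, and 60.6%, 53.2% and 55.8% with the block. Of 5 fibroblast markers, 3 were tested (Vim, Col1a1 and Thy1) and all 3 were higher upon Tip60 KD and upon double KD, with a summed signal of 8.78 to 9.05 under control KD, 16.3 to 17.9 upon Tip60 KD, 10.4 to 12.1 upon Hdac6 KD and 16.3 to 18.9 upon double KD. Upon Hdac6 KD 1 of the 3 was called, Vim, which was higher, and with the block Col1a1 was called as well, lower by -0.28 (adjusted p with the block 0.0644). Postn was at the floor on all 8 arrays and Col1a2 on 7. Of 4 endoderm, 2 mesoderm and 3 neural markers, 2, 1 and 3 were tested, and the others were at the floor on all 8 arrays. None of those tested was called in any of the 3 knockdowns, where the mesoderm marker changed by 0.40, 0.50 and 0.36. With the block, 2 of the 3 neural markers were called upon Tip60 KD and 1 upon double KD. The higher summed fibroblast marker signal accompanies every member change against control KD given below, most in Tip60 KD and double KD. Between Tip60 KD and double KD the sums overlapped. The part of this signal in the member changes was not tested.

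Upon Tip60 KD, Hdac8 and Sirt1 signal was higher and Sirt3 signal lower, the changes of largest size among the members, though the size for Hdac8 rests on control values at the floor and was smaller than that of Sirt3 with normexp background correction (0.75) and with series matrix values (0.70). Of the 14 tested probes 10 passed against control KD (8 were higher and 2 lower), where 41.3% of all probes tested were called (20.2% higher and 21% lower). Upon Hdac6 KD 7 were called, 6 higher and 1 lower, against 30.8% of all probes (14.8% and 16%). Upon double KD 5 were called, 4 higher and 1 lower, against 34.6% of all probes (16.8% and 17.9%). The median change of the 14 probes was 0.32, 0.25 and 0.20 in these 3 knockdowns, and that of all probes tested was 0.05, 0.03 and 0.05. Sirt1, Sirt2, Sirt3 and Hdac8 probe 1 were called in all 3, the last against control values that were both the floor. The 2 arrays of a knockdown did not overlap with those of control KD for 10, 12 and 11 of the 14 probes, which held for 61.7%, 57.4% and 58.6% of all probes.

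**Figure D1:**
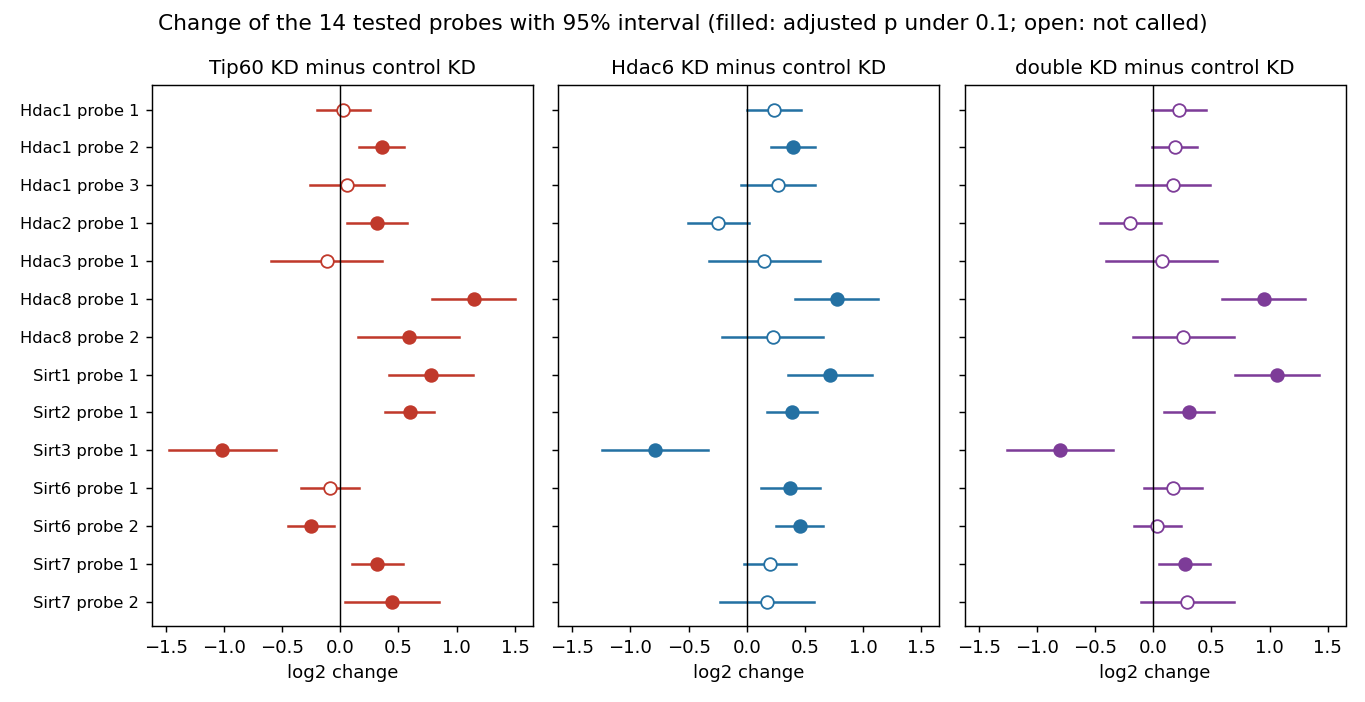
Change of the 14 tested member probes against control KD in each knockdown (x axis, log2 change; 1 row per probe), with points for the estimate, bars for the limma 95% interval and filled points for an adjusted p under 0.1. Sirt1, Sirt2 and Hdac8 probe 1 lie to the right of 0 and Sirt3 to the left in all 3 panels, and the Sirt6 probes lie to the right upon Hdac6 KD and near or left of 0 upon Tip60 KD.

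The replicate letters mark the slide, and a fit with the letter as a block called 10 member probes upon Tip60 KD, 13 upon Hdac6 KD and 12 upon double KD, where 60.6%, 53.2% and 55.8% of all probes were called. The blocked p is therefore given below for the member probes whose call it changed.

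Among the class I genes, Hdac1 showed small increases that its 3 probes did not show alike. All 3 lie within 402 bases on chromosome 4, at chr4:129193374-129193775 (mm9). The leading probe, the brightest, read 4.07 and 4.14 after control KD (replicates A and B), 4.22 and 4.04 after Tip60 KD, 4.32 and 4.35 after Hdac6 KD and 4.38 and 4.27 after double KD. The Tip60 KD arrays lay around the control values, and all arrays of Hdac6 KD and double KD lay above them. Its change was 0.03 upon Tip60 KD (95% interval -0.20 to 0.26, adjusted p 0.884), 0.23 upon Hdac6 KD (adjusted p 0.138, with the block 0.0627) and 0.22 upon double KD (adjusted p 0.142, with the block 0.0672).

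Hdac1 probe 2 read 2.09 and 2.18 after control KD, 2.46 and 2.52 after Tip60 KD, 2.53 and 2.53 after Hdac6 KD and 2.37 and 2.27 after double KD. It was lowest under control KD, and the double KD arrays lay between the control and the single knockdowns. It rose by 0.36 upon Tip60 KD (SE 0.08, adjusted p 0.0169) and by 0.40 upon Hdac6 KD (SE 0.08, adjusted p 0.0183), calls that held in all 17 alternatives, and it changed by 0.18 upon double KD (adjusted p 0.145, with the block 0.0703). Hdac1 probe 3 read 0.63 and 0.47 after control KD, 0.70 and 0.52 after Tip60 KD, 0.95 and 0.68 after Hdac6 KD and 0.76 and 0.67 after double KD. Replicate A exceeded replicate B in every group, and the changes of 0.06, 0.27 and 0.17 were not called without the block (with it, adjusted p 0.467, 0.0213 and 0.0797).

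Hdac2 was higher than control KD upon Tip60 KD and lower in value upon Hdac6 KD. Its probe, printed as 10 spots per array, read 1.15 and 0.99 after control KD, 1.41 and 1.36 after Tip60 KD, 0.91 and 0.73 after Hdac6 KD and 0.94 and 0.80 after double KD. Both Tip60 KD arrays were above every other array, and both arrays of Hdac6 KD and of double KD were below both controls. Hdac2 rose by 0.31 upon Tip60 KD (SE 0.11, adjusted p 0.0694), to 124% of control signal. It changed by -0.25 upon Hdac6 KD (adjusted p 0.163, with the block 0.0206) and by -0.20 upon double KD (adjusted p 0.239, with the block 0.0373). The difference between Tip60 KD and Hdac6 KD, 0.56 (95% interval 0.30 to 0.82, adjusted p 0.0199), was 0.50 on slide A and 0.62 on slide B. It missed the threshold without Hdac6 KD replicate B (adjusted p 0.103), and the rise upon Tip60 KD missed it without control KD replicate B, Tip60 KD replicate A or Tip60 KD replicate B (at most 0.253 over all alternatives).

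Hdac3, on chromosome 18, was the member with no call in any comparison without the block. It read 1.38 and 1.07 after control KD, 1.29 and 0.92 after Tip60 KD, 1.50 and 1.24 after Hdac6 KD and 1.44 and 1.15 after double KD. Replicate A was higher than replicate B in every group, and every knockdown overlapped with control KD. The changes were -0.12 (95% interval -0.59 to 0.36), 0.15 (-0.33 to 0.63) and 0.07 (-0.40 to 0.55). Within slides, Hdac6 KD exceeded control KD by 0.12 on slide A and 0.18 on slide B (adjusted p 0.666, with the block 0.0848), and Tip60 KD lay 0.21 and 0.33 below Hdac6 KD (adjusted p 0.457, with the block 0.017).

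Hdac8, on chromosome X, was higher in each knockdown on probe 1 and upon Tip60 KD on both probes. Probe 1 was at the floor on both control KD arrays and read -1.51 and -1.77 after Tip60 KD, -1.86 and -2.16 after Hdac6 KD and -1.73 and -1.94 after double KD. All 6 knockdown arrays were above the floor. Against that floor the signal was 2.21-fold higher upon Tip60 KD (adjusted p 0.00281). Upon Hdac6 KD it was 1.71-fold (adjusted p 0.0164) and upon double KD 1.93-fold (adjusted p 0.00758). These are not lower bounds, since the change was smaller in some settings given below. Both control values are the floor and show no spread, so these p-values rest on the floor as well. The software called this probe well above background on control KD replicate A but not on B, and the size of its change differed between settings. With normexp background correction the changes were 0.75, 0.46 and 0.56 on the log2 scale, and with the same background on every array 0.85, 0.51 and 0.63, all called (largest adjusted p 0.0709). With the values of the deposited series matrix, whose normalization is not given, they were 0.70, 0.44 and 0.54 and were not called. Quantile normalization also ended the calls upon Hdac6 KD and double KD.

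Hdac8 probe 2 read -2.75 and -2.65 after control KD, -2.26 and -1.97 after Tip60 KD, -2.59 and -2.37 after Hdac6 KD and -2.65 and -2.23 after double KD. The Tip60 KD arrays were above all others, and the double KD arrays overlapped with control KD. It rose by 0.59 upon Tip60 KD (SE 0.18, adjusted p 0.0494) and changed by 0.22 upon Hdac6 KD (adjusted p 0.449, with the block 0.0811) and by 0.26 upon double KD (adjusted p 0.36, with the block 0.0513). The rise upon Tip60 KD missed the threshold with normexp background correction (0.36, adjusted p 0.382) and with the same background on every array (0.43, adjusted p 0.321). It also missed the threshold without the filter on dim probes (adjusted p 0.154). Leaving out control KD replicate A, control KD replicate B or Tip60 KD replicate B ended the call as well. For both probes the mean was highest upon Tip60 KD, but with normexp background correction, the same background on every array or series matrix values the changes of probe 2 upon Hdac6 KD and double KD were at or just under 0 (-0.05 at the lowest), so that control KD was not the lowest group. For both the difference between Tip60 KD and Hdac6 KD was not called without the block (0.38 and 0.36, adjusted p 0.146 and 0.244, with the block 0.0208 and 0.0225).

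**Figure D2:**
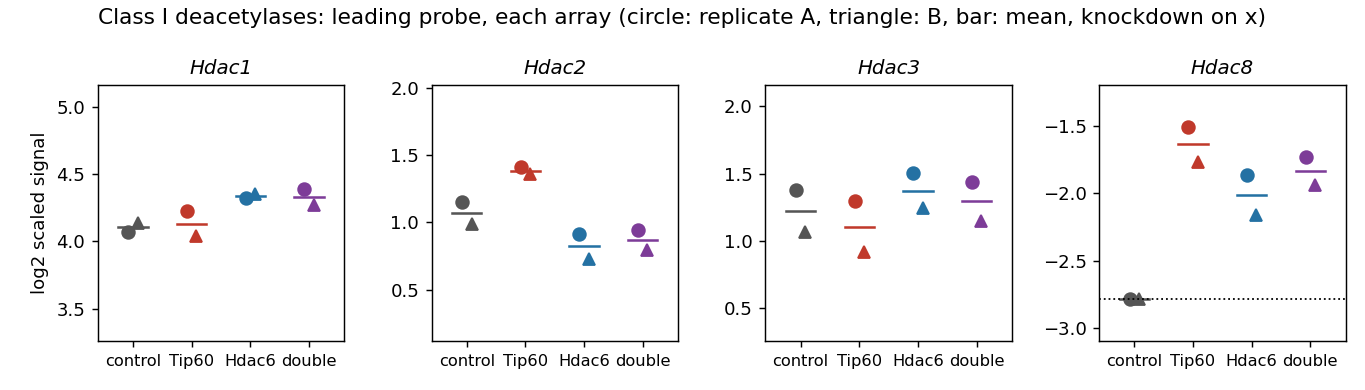
Leading probe of each class I gene on every array (y axis, log2 scaled signal; panels share the length of their axis but not its position; circles replicate A, triangles replicate B, bars the group mean). Hdac2 is highest upon Tip60 KD and lowest upon Hdac6 KD and double KD, Hdac3 groups overlap, and Hdac8 lies at the floor (dotted line) under control KD.

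Among the sirtuins, Sirt1, a nuclear deacetylase of histones and of transcription factors such as p53, rose in each knockdown. Its probe, at chr10:62781827-62781886 (mm9), read 2.43 and 2.34 after control KD, 3.28 and 3.05 after Tip60 KD, 3.23 and 2.97 after Hdac6 KD and 3.59 and 3.31 after double KD. All 6 knockdown arrays were above both controls and both double KD arrays were above the other 6. The rise was 0.78 upon Tip60 KD (SE 0.15, adjusted p 0.0104), 0.71 upon Hdac6 KD (SE 0.15, adjusted p 0.0213) and 1.06 upon double KD (SE 0.15, adjusted p 0.00556), or 1.71-fold, 1.64-fold and 2.09-fold. The single knockdowns differed by 0.06 (95% interval -0.30 to 0.43, adjusted p 0.906). Double KD exceeded Tip60 KD by 0.29 (-0.07 to 0.65, adjusted p 0.375, with the block 0.0405) and Hdac6 KD by 0.35 (-0.01 to 0.71, adjusted p 0.249, with the block 0.0199). The calls upon Tip60 KD and double KD held in all 18 alternatives, and that upon Hdac6 KD missed the threshold without control KD replicate B or Hdac6 KD replicate A (at most 0.102).

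Sirt2, at chr7:29573375-29573434 (mm9), also rose in each knockdown, most upon Tip60 KD. It read 0.30 and 0.31 after control KD, 0.98 and 0.82 after Tip60 KD, 0.65 and 0.74 after Hdac6 KD and 0.64 and 0.58 after double KD. The 4 groups did not overlap with each other, in the order Tip60 KD, Hdac6 KD, double KD and control KD. The rise was 0.60 upon Tip60 KD (SE 0.09, adjusted p 0.00427), 0.39 upon Hdac6 KD (adjusted p 0.0265) and 0.31 upon double KD (adjusted p 0.0489). Of the neighbours in that order, Tip60 KD and Hdac6 KD differed by 0.21 (adjusted p 0.176, with the block 0.0902) and double KD and Hdac6 KD by -0.08 (adjusted p 0.733). The call upon double KD missed the threshold without any 1 of the control KD and double KD arrays (at most 0.16), and that upon Hdac6 KD without control KD replicate A or Hdac6 KD replicate B (at most 0.134).

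Sirt3 was the member that fell in each knockdown. Its probe, at chr7:148049581-148049640 (mm9), read 2.19 and 2.05 after control KD, 1.23 and 0.99 after Tip60 KD, 1.47 and 1.19 after Hdac6 KD and 1.54 and 1.10 after double KD. Both controls were above all 6 knockdown arrays, and the 3 knockdowns overlapped with each other. Sirt3 fell by 1.01 upon Tip60 KD (SE 0.19, adjusted p 0.00943), to 49.6% of control signal, by 0.79 upon Hdac6 KD (SE 0.19, adjusted p 0.0316), to 57.9%, and by 0.80 upon double KD (SE 0.19, adjusted p 0.0273), to 57.4%. On slide A the changes were -0.97, -0.73 and -0.65 and on slide B -1.06, -0.85 and -0.95. The call upon Tip60 KD held in all 18 alternatives. The call upon Hdac6 KD missed the threshold without the filter on dim probes, control KD replicate A or Hdac6 KD replicate B (at most 0.156), and that upon double KD without control KD replicate A or double KD replicate B (at most 0.128).

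Sirt6, a chromatin-bound histone H3 deacetylase, was the sirtuin among the members with a called difference between the single knockdowns without the block. Its leading probe read 0.60 and 0.82 after control KD, 0.54 and 0.70 after Tip60 KD, 1.06 and 1.11 after Hdac6 KD and 0.86 and 0.90 after double KD. Both Hdac6 KD arrays were above all others, and Tip60 KD overlapped with control KD. The probe rose by 0.38 upon Hdac6 KD (SE 0.10, adjusted p 0.0489), and it changed by -0.09 upon Tip60 KD (95% interval -0.34 to 0.16, adjusted p 0.582) and by 0.17 upon double KD (adjusted p 0.298, with the block 0.0889). Sirt6 probe 2, within 379 bases of the leading probe at chr10:81084531-81084909 (mm9), read -1.73 and -1.66 after control KD, -1.99 and -1.90 after Tip60 KD, -1.28 and -1.20 after Hdac6 KD and -1.61 and -1.71 after double KD. Here the Hdac6 KD arrays were again the highest and the Tip60 KD arrays were below all others. The probe rose by 0.46 upon Hdac6 KD (SE 0.08, adjusted p 0.0142; with quantile normalization 0.41, adjusted p 0.11), fell by 0.25 upon Tip60 KD (SE 0.08, adjusted p 0.0602) and changed by 0.04 upon double KD (-0.16 to 0.24, adjusted p 0.8).

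Tip60 KD therefore lay below Hdac6 KD on both Sirt6 probes, by -0.46 (SE 0.10, adjusted p 0.031) on the leading probe and -0.71 (SE 0.08, adjusted p 0.00514) on the other, which kept its call in all 17 alternatives. On the leading probe the difference missed the threshold without Tip60 KD replicate A, Hdac6 KD replicate A or Hdac6 KD replicate B (at most 0.142), and the rise upon Hdac6 KD without control KD replicate A or either Hdac6 KD array (at most 0.194). The fall of probe 2 upon Tip60 KD missed it in 7 of 17 alternatives, among them leaving out control KD replicate A, control KD replicate B or Tip60 KD replicate A (at most 0.304).

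Sirt7, which acts at the nucleolus and on histone H3, was higher upon Tip60 KD and double KD on its leading probe. That probe, at chr11:120479736-120479795 (mm9), read -0.01 and -0.04 after control KD, 0.29 and 0.30 after Tip60 KD, 0.11 and 0.23 after Hdac6 KD and 0.16 and 0.33 after double KD. All 6 knockdown arrays were above both controls. The rise was 0.32 upon Tip60 KD (SE 0.09, adjusted p 0.0396) and 0.27 upon double KD (SE 0.09, adjusted p 0.0769), and the change upon Hdac6 KD was 0.20 (adjusted p 0.175, with the block 0.0659). Probe 2 read -2.12 and -2.04 after control KD, -1.75 and -1.53 after Tip60 KD, -2.09 and -1.73 after Hdac6 KD and -1.94 and -1.64 after double KD. It rose by 0.44 upon Tip60 KD (SE 0.16, adjusted p 0.0892), overlapped with control KD upon Hdac6 KD (0.17, adjusted p 0.539) and changed by 0.29 upon double KD (adjusted p 0.26, with the block 0.0287). Leaving out any 1 of the control KD or Tip60 KD arrays ended the calls of both probes upon Tip60 KD. The call of probe 2 was also lost with normexp background correction (0.24, adjusted p 0.468) and the same background on every array (0.27, adjusted p 0.397). Without the filter on dim probes it was lost too (adjusted p 0.238). The call of the leading probe upon double KD was lost on leaving out any 1 array except double KD replicate A. It was also lost without the filter on dim probes and with only the arrays compared (adjusted p 0.11 and 0.162).

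**Figure D3:**
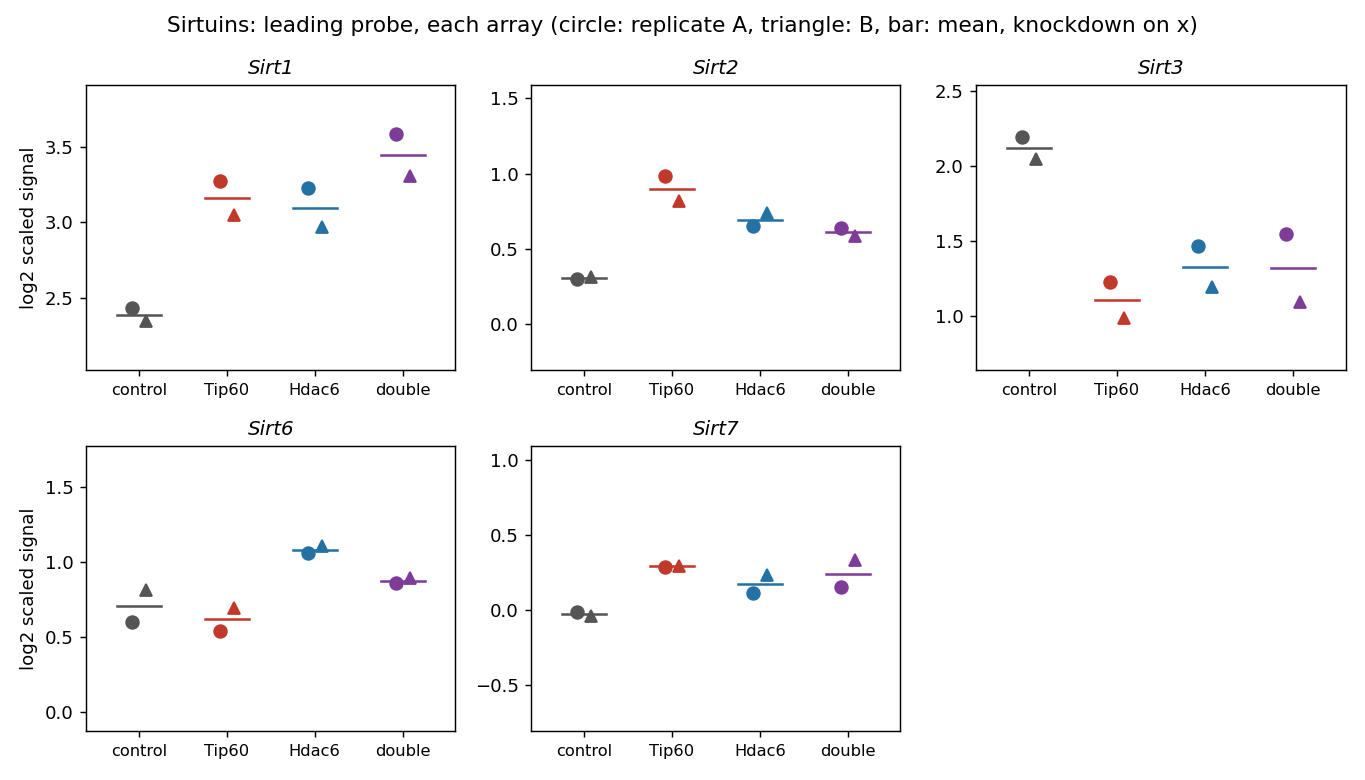
Leading probe of each sirtuin gene on every array (y axis, log2 scaled signal; panels share the length of their axis but not its position; circles replicate A, triangles replicate B, bars the group mean). Sirt1 is highest upon double KD, Sirt2 upon Tip60 KD and Sirt6 upon Hdac6 KD, and Sirt3 is highest under control KD.

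Differences between the knockdowns were fewer. Between Tip60 KD and Hdac6 KD 3 of 14 probes were called, Hdac2 higher and both Sirt6 probes lower upon Tip60 KD, where 24.5% of all probes were called (12.5% higher and 12% lower). Between double KD and Tip60 KD 1 probe was called, against 5.32% of all probes (3.44% lower): Hdac2 was lower upon double KD by -0.51 (SE 0.11, adjusted p 0.0821), a call lost in 14 of 18 alternatives (at most 0.297), among them leaving out any 1 of the 8 arrays. Between double KD and Hdac6 KD 1 was called, against 11% of all probes (5.23% lower): Sirt6 probe 2 was lower upon double KD by -0.42 (SE 0.08, adjusted p 0.045), a call lost in 8 of 17 alternatives (at most 0.219), among them leaving out any 1 of the 4 arrays compared. With the block, 10, 7 and 4 of the 14 probes were called in these 3 comparisons, where 42.2%, 27.9% and 29.5% of all probes were. Gained with the block, besides those given above, were the differences between Tip60 KD and Hdac6 KD of Hdac1 probe 3 (-0.21, adjusted p with the block 0.0569) and Sirt7 probe 2 (0.27, 0.0465). Between double KD and Tip60 KD they were those of Hdac3 (0.19, 0.0735), Hdac8 probe 2 (-0.33, 0.0507), Sirt2 (-0.29, 0.0526) and Sirt6 probes 1 and 2 (0.26, 0.0519 and 0.29, 0.0427), and between double KD and Hdac6 KD those of Hdac1 probe 2 (-0.21, 0.0773) and the leading Sirt6 probe (-0.21, 0.0874). The arrays of both groups did not overlap for 9, 7 and 5 of the 14, against 51.2%, 42.1% and 44.1% of all probes. For the interaction, the change upon double KD minus what the single changes add up to, 4 probes were called (Sirt3 higher, and Sirt2, Hdac1 probe 2 and Hdac8 probe 1 lower), where 24.3% of all probes were (12.4% higher and 11.9% lower), and 8 with the block, where 47.7% were. The block added Sirt1 (-0.43, adjusted p with the block 0.0193), Hdac2 (-0.27, 0.0516), Hdac8 probe 2 (-0.55, 0.0175) and Sirt7 probe 2 (-0.32, 0.0724). All changes against control KD share the same control arrays and so their error.

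Sirt4 and Sirt5, the other mitochondrial sirtuins, were lower as well. Sirt4 read 1.15 and 1.11 after control KD, 0.06 and -0.10 after Tip60 KD, 0.72 and 0.60 after Hdac6 KD and 0.70 and 0.45 after double KD. Both controls were above the other 6 arrays and Tip60 KD was lowest. Sirt4 fell by 1.15 (adjusted p 0.00143), 0.47 (adjusted p 0.034) and 0.55 (adjusted p 0.0187). Sirt5 fell by 0.70 upon Tip60 KD (adjusted p 0.00535) and by 0.42 upon double KD (adjusted p 0.0371), and it changed by -0.28 upon Hdac6 KD (adjusted p 0.13, with the block 0.0107). For both genes Tip60 KD lay below Hdac6 KD, by -0.68 (adjusted p 0.0135) for Sirt4 and -0.42 (adjusted p 0.0481) for Sirt5, whereas for Sirt3 that difference was -0.22 (95% interval -0.68 to 0.23, adjusted p 0.533, with the block 0.0915).

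The complexes that hold Hdac1 and Hdac2 changed in both directions. Of 11 NuRD genes 10 were tested, and 7 were called upon Tip60 KD (4 higher and 3 lower), 7 upon Hdac6 KD (5 and 2) and 8 upon double KD (5 and 3), or 8, 7 and 8 with the block. Here and for the lists below, the shares of all probes called were 41.3%, 30.8% and 34.6% in these 3 knockdowns, and 60.6%, 53.2% and 55.8% with the block. Mbd2, a subunit that binds methylated DNA, rose by 0.74, 1.16 and 0.64 (adjusted p 0.0036, 0.00243 and 0.00826), and the remodeller Chd4 rose by 0.46, 0.39 and 0.43 (adjusted p 0.00872, 0.024 and 0.0158). The histone chaperone Rbbp7 fell by 0.93 upon Hdac6 KD and 0.78 upon double KD (adjusted p 0.00488 and 0.0063) and changed by -0.15 upon Tip60 KD (adjusted p 0.378). Its partner Rbbp4 fell by 0.53, 0.50 and 0.38 (adjusted p 0.00387, 0.00852 and 0.0163).

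Of the 11 Sin3 genes, 3 were called upon Tip60 KD, 5 upon Hdac6 KD and 2 upon double KD, and 6, 8 and 8 with the block. The subunits Brms1 and Suds3 rose in all 3, Brms1 by 1.25, 0.78 and 1.00 and Suds3 by 0.41, 0.77 and 0.51 (largest adjusted p 0.0193), whereas the scaffold Sin3a fell by 0.42 upon Hdac6 KD (adjusted p 0.064) and changed by -0.05 upon Tip60 KD (adjusted p 0.81) and -0.30 upon double KD (adjusted p 0.136, with the block 0.0131). Of the 6 CoREST genes 3, 3 and 2 were called, and 4, 4 and 3 with the block. The scaffold Rcor2 rose by 0.94 upon Tip60 KD and 0.89 upon double KD (adjusted p 0.00249 and 0.00466) and by 0.41 upon Hdac6 KD (adjusted p 0.0522), and its paralog Rcor1 fell by 0.64 upon Tip60 KD and 0.29 upon double KD (adjusted p 0.00419 and 0.0679) and changed by 0.02 upon Hdac6 KD (adjusted p 0.926). All 5 genes of the NCoR/SMRT complex, which holds Hdac3, were called upon Tip60 KD (3 higher and 2 lower), 2 upon Hdac6 KD and 2 upon double KD, and all 5 in each with the block. Gps2 rose by 0.93, 0.56 and 0.88 (adjusted p 0.00275, 0.0218 and 0.00504) and the scaffold Ncor1 by 0.82, 0.58 and 0.44 (adjusted p 0.00136, 0.00668 and 0.0129). Over these 4 complexes the median change of a list lay between -0.13 and 0.40 in the 3 knockdowns.

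**Figure D4:**
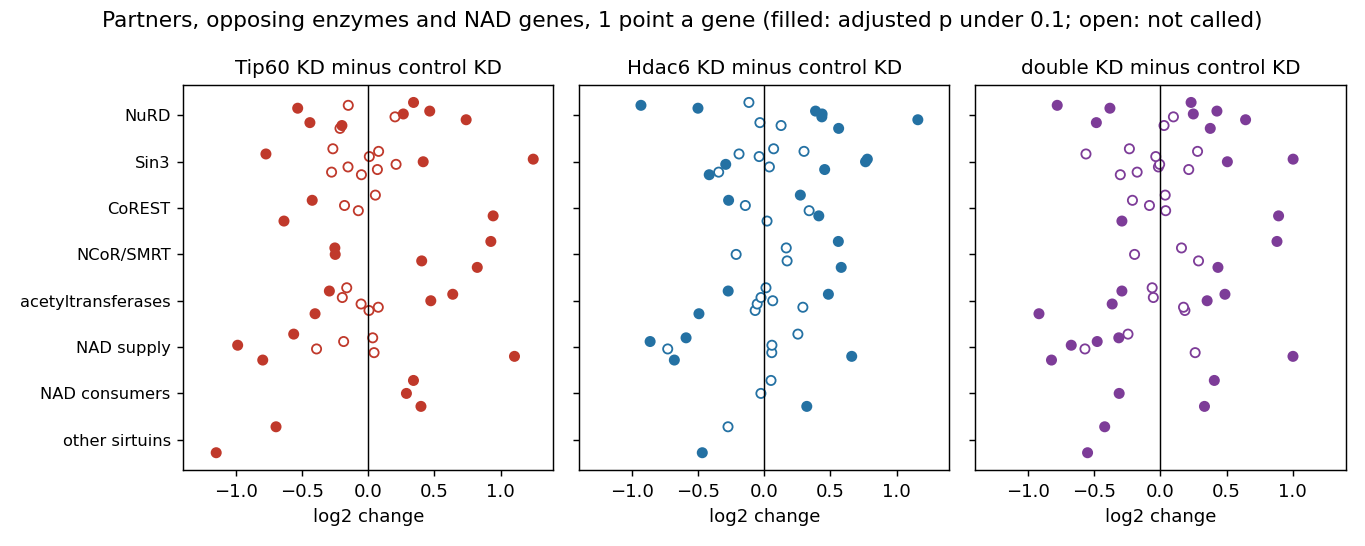
Change against control KD of each tested gene of the complexes that hold class I enzymes, of the opposing acetyltransferases, of NAD metabolism and of Sirt4 and Sirt5 (x axis, log2 change; 1 point per gene, spread vertically for legibility; filled points have an adjusted p under 0.1). Points lie on both sides of 0 in each complex, and the 2 other sirtuins lie left of 0 in all 3 panels.

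The genes that supply NAD, the cosubstrate of sirtuins, also moved both ways. Of 9 genes 8 were tested (Nnmt was at the floor on all arrays), and 4, 4 and 5 were called, 1 of them higher each time and the others lower (5, 6 and 8 with the block). Nampt, the rate-limiting enzyme of NAD salvage from nicotinamide, was at least 3.88 on both control arrays and between 3.01 and 3.29 on the other 6, and fell by 0.80, 0.68 and 0.82 (adjusted p 0.00331, 0.00973 and 0.0048). Nmnat1, the nuclear enzyme of the last step, rose by 1.11, 0.66 and 1.00 (adjusted p 0.000888, 0.00601 and 0.00179). Naprt, which starts the route from nicotinic acid, fell by 0.99 upon Tip60 KD and 0.67 upon double KD (adjusted p 0.00162 and 0.00737) and changed by 0.06 upon Hdac6 KD (adjusted p 0.763), and the NAD synthetase Nadsyn1 fell by 0.86 upon Hdac6 KD and 0.48 upon double KD (adjusted p 0.00325 and 0.0132) and changed by -0.19 upon Tip60 KD (adjusted p 0.167). Of 4 other NAD consumers 3 were tested, and 3, 1 and 3 were called with and without the block. Parp1, which uses NAD in DNA repair, rose by 0.40, 0.32 and 0.33 (adjusted p 0.0201, 0.0554 and 0.0451).

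Among 9 other acetyltransferases, which oppose the deacetylases, 4, 3 and 5 were called, and 6, 4 and 6 with the block. Hat1, which acetylates newly made histone H4, read 4.39 and 4.35 after control KD, 3.95 and 3.99 after Tip60 KD, 3.87 and 3.88 after Hdac6 KD and 3.37 and 3.53 after double KD. It fell by 0.40, 0.49 and 0.92 (adjusted p 0.0124, 0.0107 and 0.00179), with double KD below both single knockdowns. Kat6b rose by 0.64, 0.48 and 0.49 (adjusted p 0.0091, 0.0331 and 0.0292), and Crebbp rose by 0.47 upon Tip60 KD and 0.35 upon double KD (adjusted p 0.0325 and 0.0914) and changed by 0.06 upon Hdac6 KD (adjusted p 0.788).

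The starts of Sirt2 and Sirt3 lie 108 and 85 bases from an opposite start, as shown in the sequences above, which allowed the genes of each pair to be compared. Nfkbib, an inhibitor of NF-kappaB, rose beside Sirt2 by 0.54 upon Tip60 KD (SE 0.11, adjusted p 0.0118) and 0.33 upon double KD (adjusted p 0.072) and changed by 0.29 upon Hdac6 KD (adjusted p 0.103, with the block 0.0575). Psmd13, a proteasome subunit, read 2.40 and 2.40 after control KD, 2.89 and 2.80 after Tip60 KD, 2.79 and 2.65 after Hdac6 KD and 2.84 and 2.60 after double KD. It rose by 0.45, 0.32 and 0.33 (SE 0.11, adjusted p 0.0217, 0.0798 and 0.0725) where Sirt3 fell. Its 6 knockdown arrays were thus all above both controls, and those of Sirt3 all below.

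Over 18058 other genes, the profiles most like those of the 3 members with the largest change were found from the 4 group means, each centred on its own mean, by the summed squared distance. No distance is given for Hdac8, 1 of these 3, since its control mean is the floor and not a measured level. Nearest to Sirt1 were Ddc (0.00423), Mgat3 (0.00446) and H2bc4 (0.0067), and nearest to Sirt3 were Gm2a (0.00199) and Ctc1 (0.00236). With 4 points per profile, drawn from the same 8 arrays, these distances describe likeness on these arrays only.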

How the data were processed

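Total RNA from the 8 cultures was amplified, labelled with Cy3 and hybridised to Agilent 4X44K mouse arrays of 1 colour. Per the file headers, Feature Extraction 10.7.1.1 gave a fluorescence intensity per spot, and the deposited processed signal is this intensity after the software subtracted a background, with no scaling between arrays. The series matrix deposited by the authors holds log2 values, with column medians of 8.19 to 8.20 and a rank correlation of 0.989 to 1.000 with the processed signal of the same array, whose normalization is not given in the sources used here.

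From these files, processed signals were scaled to the 75th percentile of their array, with outlier-marked spots left out and replicate spots averaged, then raised to a floor and put on the log2 scale. The floor (0.145 of the percentile) is the lowest signal called well above background, taken on the array where it is highest. Of 39429 probes, 22518 passed 2 filters on at least 2 arrays (well above background, and over the floor). They entered 1 fit of all 4 groups in limma 3.58.1 (functions lmFit and eBayes, R 4.3.3), 2-sided, and a change was called where the adjusted p (Benjamini-Hochberg, over all probes tested) was under 0.1. Every adjusted p in the text is limma's. Residual degrees of freedom were 4 and prior ones 1.87, so the small number of arrays sets the precision. The study's methods state 2 biological replicates, and the sample titles give only their letters. Without the block, p-values measure the spread between these replicates, which includes any difference between the slides. An exception is where values of a group were raised to the floor, as for Hdac8 probe 1 under control KD. Background subtraction differed between arrays (median 37.2 to 114.3 intensity units), which bears on dim probes most. On each slide it was largest for control KD: 61.0 against 37.2 to 39.4 on slide A, and 114.3 against 41.4 to 89.0 on slide B. With the same background on every array, changes upon Tip60 KD went from 1.15 to 0.85 (Hdac8 probe 1), 0.59 to 0.43 (Hdac8 probe 2) and 0.44 to 0.27 (Sirt7 probe 2). The interaction subtracts both single changes from that upon double KD.

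Every group had 1 array on each slide: replicate letter and slide coincide, and position on the slide coincides with group and cannot be told apart from it. Differences between A and B correlated between all pairs of groups (6 correlations over 22313 probes, 0.645 to 0.786), so the letters pair the arrays, and a fit with the letter as a block was computed as well.

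The same fit was tested on simulated arrays made from 22313 real probes and their spread, with 200 probes changed by 1 on the log2 scale: 127, 123 and 130 were recovered upon Tip60, Hdac6 and double KD, with 15, 7 and 6 false calls. The simulated noise was independent between arrays, without the pairing by slide, and far fewer probes were changed than were called in the data. These counts therefore check the fit and do not give its error rates on the real arrays. The members, lists and rules were chosen with earlier results of these data known. Members are described through all their probes, and other genes through their brightest tested probe, named only where called (at most 4 per list and knockdown by size) or where they bear on a member: the other mitochondrial sirtuins, the genes of a shared promoter region, and the 3 most alike genes, of which 1 is not reported here. Promoter stretches come from RefSeq (GRCm38.p6) and probe positions from the files (mm9), and the builds were not mixed. No mm9 annotation of exons and untranslated regions was used here. Alternatives covered background correction, scaling, floor, filter, source of values, block, probe choice and leaving out each array. Figures were drawn with matplotlib 3.10.9 (Python 3.11.15).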

Additional observations from a re-analysis of the deposited data

Results flagged for a closer look

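A test of whether the double knockdown differed from the sum of the single ones picked out 4 of the 14 member probes, where 24.3% of all probes were called. Sirt3, which fell in each knockdown, was less reduced in double KD than the sum of the single changes, by 1.00 (SE 0.26, limma adjusted p 0.0545; 1.04 on slide A and 0.96 on slide B). This call was lost in 7 of 17 alternatives, among them leaving out control KD replicate A, control KD replicate B, Tip60 KD replicate B, Hdac6 KD replicate B or double KD replicate A (adjusted p up to 0.162). Sirt2, which rose in each knockdown, fell short of the sum by -0.68 (SE 0.12, adjusted p 0.0207; -0.70 and -0.66 on the slides), and Hdac1 probe 2 by -0.57 (SE 0.11, adjusted p 0.0242; -0.53 and -0.60), and both calls held in all alternatives run, with adjusted p up to 0.0787 and 0.0856. Hdac8 probe 1 fell short by -0.97 (SE 0.21, adjusted p 0.0307), but its control values lie at the floor and the call was lost with quantile normalization and with the series matrix values (adjusted p up to 0.397). For Sirt1 the same difference was -0.43 (95% interval -0.94 to 0.08, adjusted p 0.233, with the block 0.0193). The single and double changes share the control arrays, so an error in these enters all 3. Hdac6 itself was less reduced upon double KD than upon Hdac6 KD, and the bearing of this on the interaction was not tested.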

How the results depend on the processing

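The 31 called changes of member probes, over all comparisons and the interaction, were recomputed under each alternative, giving 541 values. Of these 445 kept direction and call, 96 lost the call and 0 reversed. Of 1170 values of the 67 uncalled changes 47 gained a call.

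The replicate block, which follows the pairing of arrays by slide, moved the counts of called member probes most, from 7 to 13 in Hdac6 KD, from 5 to 12 in double KD, from 1 to 7 between double KD and Tip60 KD, from 1 to 4 between double KD and Hdac6 KD, from 3 to 10 between Tip60 KD and Hdac6 KD and from 4 to 8 for the interaction. In Tip60 KD the count was 10 with and without the block. The block raised the share called over all probes too. This share went from 41.3% to 60.6% in Tip60 KD, 30.8% to 53.2% in Hdac6 KD and 34.6% to 55.8% in double KD. Between double KD and Tip60 KD it went from 5.32% to 27.9%, and between double KD and Hdac6 KD from 11% to 29.5%. Between Tip60 KD and Hdac6 KD it went from 24.5% to 42.2%, and for the interaction from 24.3% to 47.7%. Over these comparisons no call was lost under the block.

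The count in Tip60 KD was 6 with 1 probe per gene, which tests 9 member probes instead of 14. Between double KD and Tip60 KD it was 0 with normexp background correction, the same background on every array, series matrix values, the low floor, no filter on dim probes and only the arrays compared, and 2 with quantile normalization. Between double KD and Hdac6 KD it was 0 with normexp background correction, quantile normalization, series matrix values, 1 probe per gene and only the arrays compared. Leaving out each array in turn gave 5 to 10 called probes in Tip60 KD, 4 to 7 in Hdac6 KD, 2 to 4 in double KD, 0 to 0 between double KD and Tip60 KD, 0 to 1 between double KD and Hdac6 KD, 1 to 3 between Tip60 KD and Hdac6 KD and 3 to 4 for the interaction. A group left with 1 array was assumed to vary like the others. Changes of Hdac8 and of the second Sirt7 probe, which lie near the floor, are limited by signal over background.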
